A study of Danio rerio with 6 samples.

Results

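Respiratory complexes II to V are the part of the mitochondrial respiratory chain that follows complex I, together with ATP synthase. Their genes were found by the start of the gene symbol (uqcr, cyc1, cox4 to cox8 and atp5) or by name (SDHA, SDHB, SDHC and the mitochondrially encoded cytochrome b, cytochrome oxidase and ATP synthase genes), without use of any measured value. The rule also names sdhda and sdhdb, which are no symbols in the table used here; it lists both SDHD genes as SDHD, so they were not taken and are described beside complex II. The rule took 56 of the 31953 genes in the count table, 50 encoded in the nucleus and 6 in the mitochondrial genome. RNA came from adult zebrafish (Danio rerio) carrying the transgene Tg(slc12a3:mCherry), in which the promoter named after the sodium-chloride cotransporter gene slc12a3 drives a red fluorescent protein. The DL group holds 3 libraries of hand-dissected distal late segments, labelled mCh+, and the rest group holds 3 libraries of the mesonephros (the adult kidney) without those segments, labelled mCh-. Both groups carry the same transgene and no treatment is named. How many fish gave each library, and if DL and rest tissue was taken from the same animals, is not stated. The p-values therefore cover only the spread between these libraries, which may be technical.

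Complex II oxidises succinate and passes electrons to ubiquinone, complex III passes them on to cytochrome c, and complex IV passes them to oxygen. Complexes III and IV pump protons across the inner mitochondrial membrane, and complex V, ATP synthase, uses the return flow to make ATP. The distal tubule of the mammalian kidney is known for dense mitochondria beside the sodium pump that they supply.

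The 6 libraries held 9320756 to 22776825 deposited counts, and all 56 genes passed the low-count filter of the test. Levels are CPM, the counts relative to the library size after scaling by the trimmed mean of M-values (TMM), with no correction for gene length. Values of single libraries are given in the order of replicates 1, 2 and 3 of a group. SLC12A3, the gene whose promoter drives the reporter, stood at 250.5, 904.5 and 32.9 CPM in DL and at 41.9, 30.4 and 43.0 CPM in the rest. The library labelled DL replicate 3 was thus inside the range of the rest for this gene. It was above every rest library for other distal tubule genes, such as GATA3, a transcription factor, at 141, 108 and 49.8 against 28.3, 15.1 and 13.4 CPM, and clcnk, a chloride channel, at 126, 76.9 and 11.2 against 9.50, 1.95 and 1.02 CPM. Every DL library was above every rest library for 6 of 12 tested distal tubule genes (50%), beside 6.82% of all genes. That list was chosen with earlier results of these data known, so this share is no independent check of the dissection. Of the 12, 2 had a negative fold change. For some, such as TRPM6 and pvalb9, DL replicate 3 was inside the range of the rest. In DL replicate 1 and rest replicate 3, the 20 genes counted most often held 81.5% of all counts, against 37.0% to 56.8% in the other libraries. In bulk samples, fewer cells of a type and less RNA per cell cannot be told apart.

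Of the 56 genes of complexes II to V, 55 had a positive fold change in DL against the rest, against 46.5% of all 17083 genes tested. With the tested SDHD gene, which was negative, it is 55 of 57, and 47 of the 56 were positive when libraries were scaled by size alone. The median log2 fold change of the 56 was 0.997, beside -0.07 over all genes, and 27 of the 56 were above a log2 fold change of 1, against 11.8% of all genes. No single gene passed the edgeR quasi-likelihood test adjusted over all genes, which called 0.0644% of all genes higher and 0 lower. An unadjusted p under 0.05 with a higher level in DL was found for 13 of the 56 (23.2%), against 4.09% of all genes, and 0 were lower, against 2.73% of all genes. DESeq2 called 4 of them higher, against 1.36% of all genes, and limma-voom with sample quality weights called 0, against 0.211%. Every DL library was above every rest library for 7 of the 56 (12.5%), against 6.82% of all genes. That count was 0 when libraries were scaled by size alone, against 2.08% of all genes. With fewer libraries separation is easier, and the count was 17 without DL replicate 1, 23 without DL replicate 3 and 26 without rest replicate 1, against 12%, 12.5% and 12.4% of all genes. Without both DL replicate 1 and rest replicate 3 it held for 17 of the 56 genes, against 3111 of 18418 genes in all (16.9%). The count out of 56 at an unadjusted p under 0.05 was 3 when scaled by library size alone, against 1.14% of all genes. It was 5 without DL replicate 2 (against 2.88% of all genes) or rest replicate 2 (3.1%). It was 7 without rest replicate 3 (3.93%) or without that pair (3.37%), and 25 without rest replicate 1 (5.06%). When libraries were scaled by size alone, the median of all genes moved to -0.50 and that of the 56 to 0.45, so the distance between them went from 1.06 to 0.95.

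**Figure D1:**
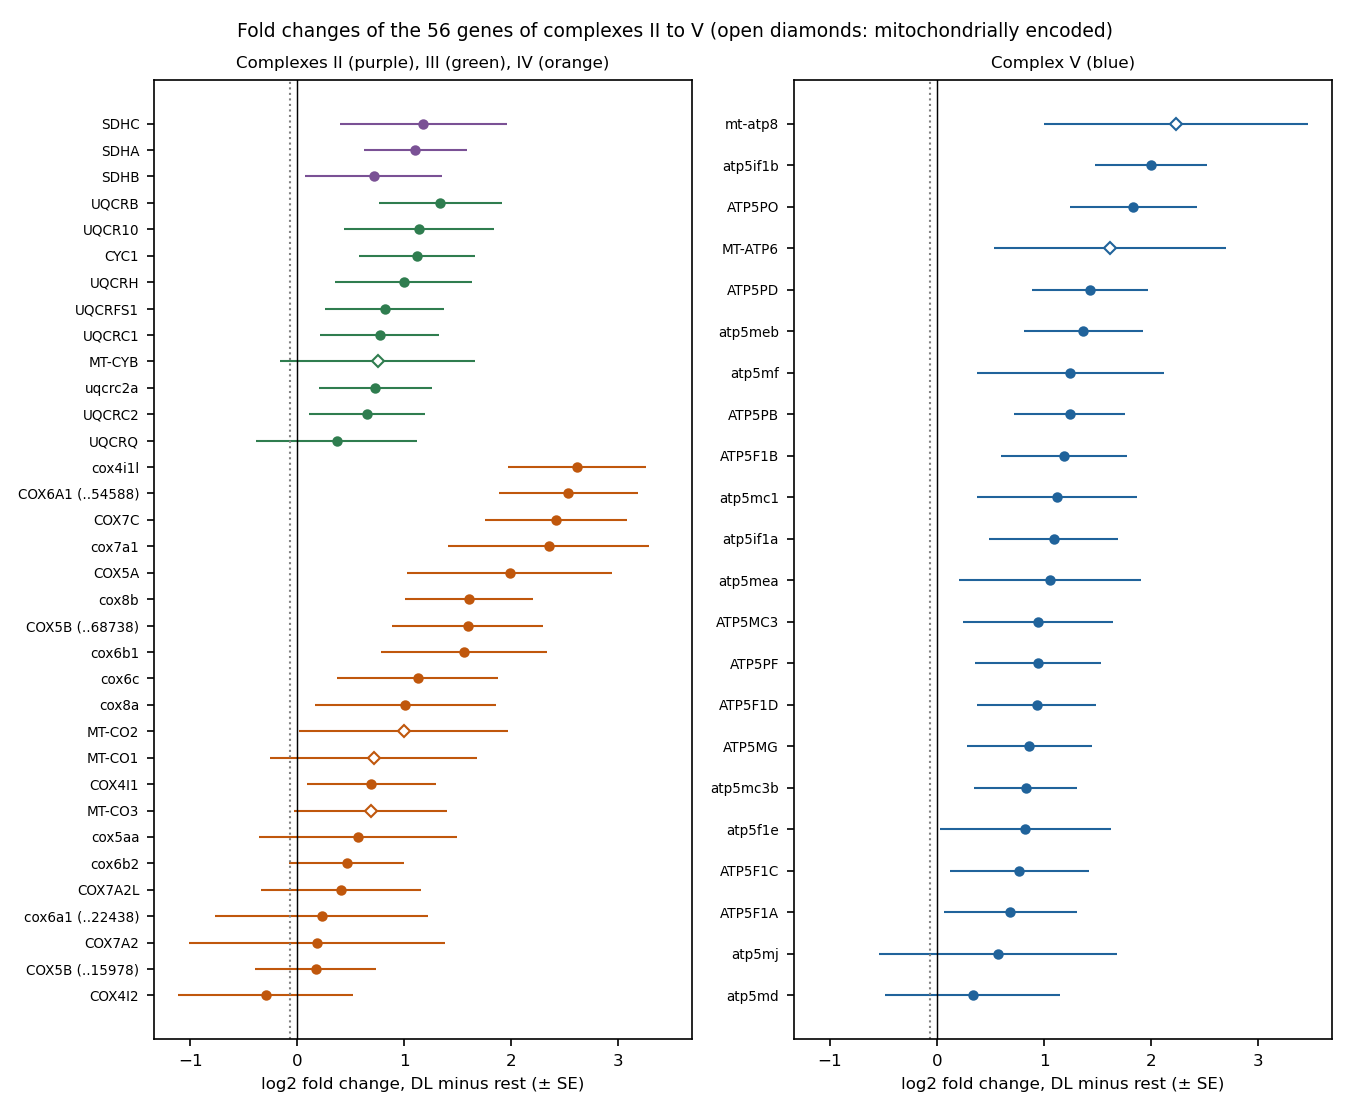
Fitted log2 fold change (DL minus rest, x axis) with its standard error for each of the 56 genes, grouped by complex; open diamonds are mitochondrially encoded genes and the dotted line is the median of all genes tested, -0.07. Digits in brackets are the end of the gene identifier where copies share a symbol. All genes but COX4I2 lie right of 0, of which 8 lay left of it when libraries were scaled by size alone, and the widest spread is among the orange genes of complex IV.

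The 3 complex II genes that the rule took had a median log2 fold change of 1.102, which was 0.29 without DL replicate 2 and 0.47 when scaled by library size alone. SDHA, the flavoprotein that oxidises succinate, stood at 134, 106 and 44.6 CPM in DL and at 46.9, 47.3 and 38.6 CPM in the rest. DL replicates 1 and 2 were far above every rest library, and DL replicate 3 lay within their range. The gene had a log2 fold change of 1.102 ± 0.480 (SE, adjusted p = 0.683 by edgeR). SDHB, the iron-sulfur subunit, stood at 26.7, 48.8 and 21.3 against 35.0, 18.5 and 5.08 CPM, with a log2 fold change of 0.71 ± 0.64. SDHC, a membrane anchor, stood at 9.87, 73.1 and 28.2 against 30.6, 14.1 and 4.07 CPM, with a log2 fold change of 1.18 ± 0.78. For both, rest replicate 1 was above DL replicates 1 and 3. The other anchor, SDHD, is listed under 2 identifiers, which are not among the 56 genes because of the spelling of their symbol. SDHD_ENSDARG00000030139 stood at 5.28, 6.20 and 2.46 against 8.52, 8.45 and 4.74 CPM, with a log2 fold change of -0.64 ± 0.71 (adjusted p = 0.999 by edgeR). SDHD_ENSDARG00000055712 had at most 50 counts in any library and was not tested.

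All 9 nuclear genes of complex III had positive fold changes, with a median log2 value of 0.82 and a range of 0.37 to 1.34. The median was 0.26 when scaled by library size alone, 0.43 without DL replicate 2 and 1.54 without rest replicate 1. UQCRB, a small subunit known to bind ubiquinone, was the only gene of this complex with no overlap between groups. That is 11.1% of the 9 nuclear genes, beside 6.82% of all genes. UQCRB stood at 29.2, 54.5 and 26.7 CPM in DL and 26.0, 9.96 and 7.46 CPM in the rest. The lowest DL library was thus only just above rest replicate 1. The fitted log2 fold change was 1.34 ± 0.57 (SE, adjusted p = 0.662 by edgeR). CYC1, the cytochrome c1 that hands electrons to cytochrome c, stood at 58.6, 89.8 and 28.3 against 42.2, 22.6 and 16.3 CPM, with a log2 fold change of 1.12 ± 0.54. UQCR10, another small subunit, had 1.14 ± 0.70. The core subunit gene UQCRC1 stood at 125, 158 and 72.2 against 126, 44.8 and 36.8 CPM, with a log2 fold change of 0.77 ± 0.56. Rest replicate 1 stood beside DL replicate 1, so the groups overlapped. The second core subunit is listed as UQCRC2 and uqcrc2a, with log2 fold changes of 0.65 ± 0.54 and 0.73 ± 0.53. UQCRFS1, the Rieske iron-sulfur protein, had 0.82 ± 0.56 and UQCRH, the hinge protein beside cytochrome c1, had 0.998 ± 0.640. UQCRQ had the smallest value of the complex, 0.37 ± 0.75, which was -0.04 without DL replicate 2.

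Complex IV had the widest range among its 18 nuclear genes, from -0.29 to 2.62, with a median log2 fold change of 1.07, which lay between 0.41 and 1.71 over the alternatives. The 4 genes of this complex without overlap between groups were cox4i1l, COX6A1_ENSDARG00000054588, COX7C and cox8b. They are 22.2% of its 18 nuclear genes, beside 6.82% of all genes. The gene cox4i1l, a relative of the regulatory subunit 4, stood at 38.5, 68.0 and 16.9 CPM in DL and at 10.7, 3.25 and 6.10 CPM in the rest. Its log2 fold change was 2.62 ± 0.64 (SE, adjusted p = 0.219 by edgeR, and 0.00721 by DESeq2). It was the 1 gene of the 56 that edgeR called when no low-count filter was used (adjusted p = 0.0393), with 0.381% of all genes called higher. COX6A1_ENSDARG00000054588, a copy of subunit 6A, stood at 61.8, 221 and 63.7 against 23.8, 27.6 and 8.13 CPM. Its lowest DL library was well clear of its highest rest library. The log2 fold change was 2.53 ± 0.65 (adjusted p = 0.246 by edgeR and 0.00656 by DESeq2), whereas the copy cox6a1_ENSDARG00000022438 had 0.23 ± 0.99 with overlap between groups, and -0.78 when scaled by library size alone. COX7C, a small subunit, stood at 16.3, 44.9 and 14.3 against 5.75, 2.06 and 6.44 CPM, with a log2 fold change of 2.42 ± 0.67 (adjusted p = 0.296 by edgeR and 0.032 by DESeq2). Over all alternatives the edgeR, DESeq2 or limma-voom adjusted p reached 0.999 for each of these 3 genes, and their log2 fold changes stayed between 1.66 and 3.17. The gene cox8b, whose mouse counterpart is the heart and muscle form of subunit 8, stood at 11.9, 35.1 and 12.2 against 7.49, 5.41 and 6.61 CPM, with 1.61 ± 0.60.

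Other complex IV genes had large fold changes with overlap between the groups. The gene cox7a1, whose mammalian counterpart is the heart and muscle form of subunit 7A, stood at 6.81, 38.2 and 3.03 against 5.75, 1.84 and 1.69 CPM. DL replicate 2 alone was well above the rest, and the log2 fold change was 2.35 ± 0.94. COX5A stood at 18.2, 37.0 and 12.9 against 13.0, 3.63 and 0.169 CPM, the last from 1 count, with 1.98 ± 0.96. COX5B_ENSDARG00000068738 had 1.59 ± 0.70 and cox6b1, a subunit on the side where cytochrome c docks, had 1.56 ± 0.78. COX4I1, the main form of subunit 4 in mammals, stood at 113, 396 and 236 against 262, 122 and 77.4 CPM. Its groups overlapped broadly, and the log2 fold change was 0.69 ± 0.60. COX4I2, the form known in mammals from the lung and from low oxygen, was the 1 negative gene, at 1.94, 9.71 and 5.39 against 2.41, 7.64 and 11.2 CPM. Its log2 fold change of -0.29 ± 0.82 was 0.02 by limma-voom, so it has no settled direction. The same holds for others, among them COX5B_ENSDARG00000015978 (0.17 ± 0.57, and -0.53 when scaled by library size alone), COX7A2 (0.19 ± 1.195, and -0.10) and cox5aa (0.57 ± 0.93, and -0.10). It also holds for cox6a1_ENSDARG00000022438 (0.23 ± 0.99, and -0.78). The gene cox6b2, a copy of subunit 6B, stood at 27.8, 81.5 and 72.1 against 69.6, 37.9 and 23.9 CPM, with 0.46 ± 0.54, or -0.03 when scaled by library size alone. The small subunit genes cox6c and cox8a had 1.13 ± 0.75 and 1.01 ± 0.85, with overlap between groups in both. COX7A2L, which in mammals ties complexes III and IV into supercomplexes, had 0.41 ± 0.75, and -0.39 when scaled by library size alone.

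**Figure D2:**
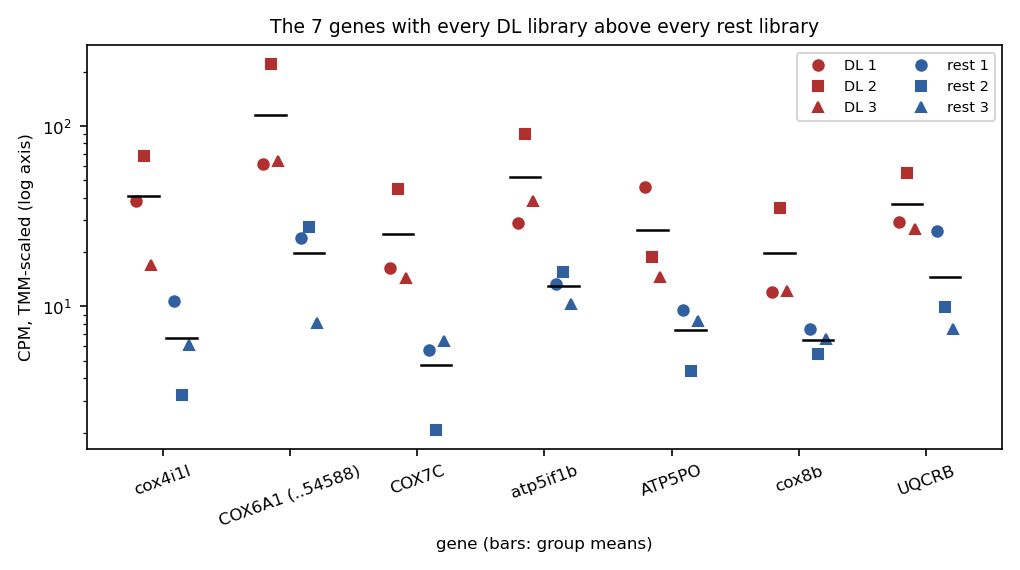
CPM on a log axis for the 7 genes in which every DL library (red) was above every rest library (blue); symbols mark replicates and bars the group means. In 6 of the 7 genes DL replicate 2 is highest, and in ATP5PO DL replicate 1 is.

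All 20 nuclear genes counted under complex V had positive fold changes, with a median log2 value of 1 and a range of 0.33 to 2.002, though ATP5F1A, atp5mc1, atp5md and atp5mj turned negative in an alternative. The median was 0.50 when scaled by library size alone and 1.501 without rest replicate 1. The highest belonged to atp5if1b, a copy of the inhibitor protein that stops ATP synthase from running in reverse and splitting ATP. It stood at 29.0, 89.8 and 38.2 CPM in DL and at 13.3, 15.5 and 10.33 CPM in the rest, without overlap. The log2 fold change was 2.002 ± 0.525 (SE, adjusted p = 0.265 by edgeR and 0.0295 by DESeq2), between 1.37 and 2.34 over the alternatives, with adjusted p values up to 0.999. The second copy, atp5if1a, stood at 15.01, 44.5 and 24.8 against 19.4, 14.9 and 5.08 CPM, and rest replicate 1 lay above DL replicate 1. Its log2 fold change was 1.09 ± 0.60.

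The catalytic head of ATP synthase is built mainly from the alpha and beta subunits. ATP5F1A, the alpha subunit, stood at 488, 621 and 230 against 518, 161 and 152 CPM, and its log2 fold change of 0.69 ± 0.62 was -0.02 when scaled by library size alone. ATP5F1B, the beta subunit, stood at 546, 340 and 117 against 187, 103 and 152 CPM, with 1.18 ± 0.59. DL replicates 1 and 2 were above every rest library in the beta subunit, and only DL replicate 2 was in the alpha subunit. The gamma, delta and epsilon subunits of the central stalk, which turns inside the head, are encoded by ATP5F1C, ATP5F1D and atp5f1e. They had 0.77 ± 0.65, 0.93 ± 0.56 and 0.82 ± 0.80. The outer stalk that holds the head still held several of the larger values. ATP5PO, the protein that caps this stalk, stood at 46.1, 18.8 and 14.6 against 9.53, 4.39 and 8.30 CPM without overlap. Its log2 fold change was 1.84 ± 0.60 (adjusted p = 0.431 by edgeR). With atp5if1b, 2 of the 20 nuclear genes of complex V had no overlap (10%), beside 6.82% of all genes. ATP5PD, the stalk's d subunit, stood at 58.2, 76.6 and 20.1 against 24.0, 12.9 and 20.7 CPM, with 1.43 ± 0.54. ATP5PB, the b subunit, stood at 157, 206 and 70.6 against 89.5, 47.7 and 46.3 CPM, with 1.24 ± 0.52. In both, DL replicate 3 was below rest replicate 1 and DL replicates 1 and 2 were above all rest libraries. ATP5PF, a further part of the stalk, had 0.94 ± 0.59.

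The c subunit, which forms the turning ring in the membrane, is listed under 3 genes. The gene atp5mc1 stood at 21.4, 135 and 32.2 against 56.4, 18.6 and 11.7 CPM. Its log2 fold change of 1.12 ± 0.75 became -0.11 without DL replicate 2. ATP5MC3 had 0.94 ± 0.70 and atp5mc3b had 0.83 ± 0.48. Among the small membrane subunits, atp5meb had 1.37 ± 0.56 and its copy atp5mea 1.06 ± 0.85, whereas atp5md and atp5mj had the smallest values of the complex, 0.33 ± 0.82 and 0.57 ± 1.11. Without DL replicate 2 these were -0.98 and -0.68. ATP5MG had 0.86 ± 0.59 and atp5mf had 1.25 ± 0.87.

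The 50 nuclear genes were mostly high or low in the same libraries, and rest replicate 1 lay above DL replicate 3. Relative to each gene's own mean, the median level on the log2(CPM + 1) scale was 0.51, 1.23 and -0.10 in DL and 0.24, -0.67 and -1.05 in the rest. Over all genes tested these medians lay between -0.07 and 0.05. This order of libraries was not particular to complexes II to V. Nuclear complex I genes had the same order, at 0.34, 1.05 and -0.31 in DL and 0.21, -0.54 and -0.63 in the rest. Shares over all genes were not computed for the counts that follow. Rest replicate 1 was the highest rest library for 40 of the 50 genes, and DL replicate 3 the lowest DL library for 33. DL replicate 2 was the highest of all 6 libraries for 35 genes, and rest replicate 3 the lowest for 30. Set against each other, DL replicate 3 was above rest replicate 1 for only 14 of the 50 genes, while DL replicate 2 was above it for 45 and DL replicate 1 for 27. Between the pair of libraries dominated by a few genes, DL replicate 1 was above rest replicate 3 for 47 genes, with a median log2 ratio of 1.38. Without that pair the median log2 fold change of all 56 genes was 0.89. DL replicate 2, the highest here, was also the library with the most SLC12A3, but GATA3 and clcnk were highest in DL replicate 1. Within DL, each of these genes was lowest in DL replicate 3. SLC12A3 did not set rest replicate 1 apart, at 41.9 CPM beside 43.0 CPM in rest replicate 3. A link between such distal tubule genes and the order of the libraries was not tested.

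**Figure D3:**
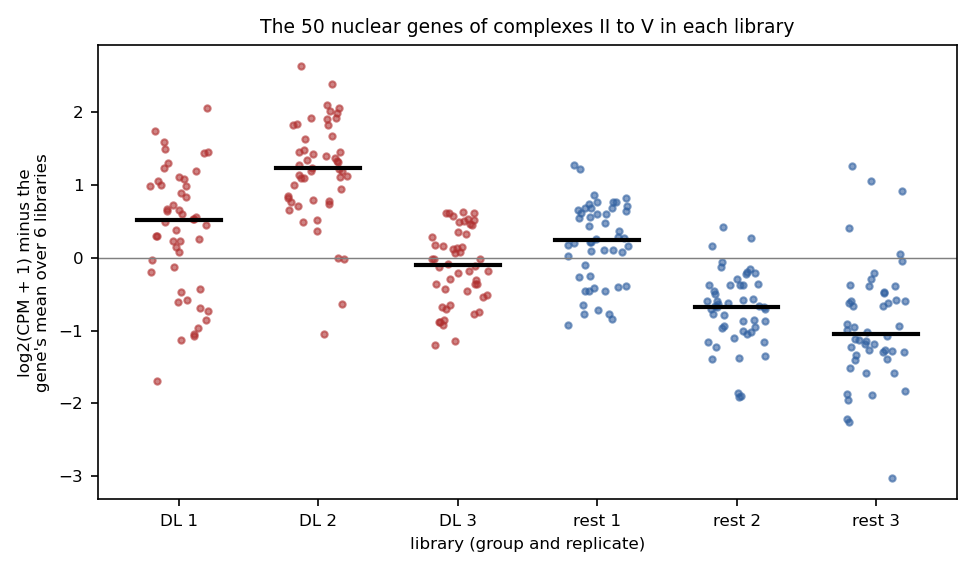
Each point is 1 of the 50 nuclear genes, as log2(CPM + 1) minus that gene's mean over the 6 libraries (y axis), by library (x axis); black bars are medians. The medians run from 1.23 in DL replicate 2 to -1.05 in rest replicate 3, and rest replicate 1 lies above DL replicate 3.

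Summed over all 50 nuclear genes, the level was 2758, 4240 and 1646 CPM in DL and 2323, 1059 and 946 CPM in the rest. Complexes II, III and V kept this order of libraries and complex IV did not. Nuclear complex V genes summed to 1684, 2163 and 771 against 1264, 543 and 539 CPM. Complex III summed to 447, 722 and 260.4 against 422, 183 and 161 CPM, and complex II to 171, 228 and 94.1 against 113, 79.9 and 47.8 CPM. For complex IV the sums were 457, 1127 and 520.5 against 524, 254 and 198 CPM, so that DL replicate 2 alone was above rest replicate 1. These levels depend on the scaling, with TMM factors of 0.52, 1.164 and 1.138 in DL and 1.801, 1.511 and 0.5335 in the rest. As an unscaled share of all counts, the 50 genes held 0.143%, 0.4925% and 0.187% in DL and 0.416%, 0.159% and 0.0503% in the rest. By that share, DL replicate 1 was below rest replicates 1 and 2.

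The 6 mitochondrially encoded genes all had positive fold changes, but their levels split the libraries in another way than the nuclear genes did. MT-CYB, the cytochrome b of complex III, stood at 2149, 14639 and 10714 CPM in DL and at 8897, 4849 and 2558 CPM in the rest. DL replicate 1 was the lowest of all 6 libraries and rest replicate 3 the next. The log2 fold change was 0.75 ± 0.91 (SE, adjusted p = 0.999 by edgeR). In the catalytic core of complex IV, MT-CO2 stood at 1307, 13468 and 10808 against 7461, 3840 and 1528 CPM, with 0.996 ± 0.975. MT-CO1 stood at 21912, 63236 and 55092 against 27572, 30092 and 27616 CPM, with 0.72 ± 0.97. MT-CO3 stood at 3761, 7465 and 7150 against 3351, 4265 and 3799 CPM, with 0.69 ± 0.72. For both of these the scaled levels of the rest libraries were close together, DL replicates 2 and 3 lay above them, and DL replicate 1 did not. Before scaling, rest replicate 3 was lower. MT-CO1 had 905800, 555700 and 163000 counts in the rest, out of 18329049, 12279681 and 11109171.

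The mitochondrially encoded genes of complex V had the largest spread. MT-ATP6 stood at 596, 12243 and 9712 CPM in DL and at 4469, 2274 and 591 CPM in the rest, with a log2 fold change of 1.62 ± 1.08. The gene mt-atp8 stood at 9.45, 795 and 835 against 207, 112 and 30.0 CPM, with 2.23 ± 1.23. These genes overlap in vertebrate mitochondrial genomes, so reads can be shared and the separate values are uncertain. In both, DL replicates 2 and 3 were above every rest library while DL replicate 1 was at or near the bottom.

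The mix of mitochondrial transcripts followed DL replicate 1 and rest replicate 3, not the groups. MT-CO1 made up 73.7% and 76.5% of the counts of the 6 genes in those libraries, against 53.1% to 66.2% in the other 4. The ratio of MT-CO1 to MT-CO2 counts was 16.8 and 18.1 there, against 3.70 to 7.84 elsewhere, and that of MT-CO3 to MT-ATP6 was 6.31 and 6.42, against 0.61 to 1.88. The 6 genes held 1.54%, 13.0% and 10.7% of all counts in DL and 9.31%, 6.83% and 1.92% in the rest. The group means, 8.41% ± 6.06 and 6.02% ± 3.76 (SD, n = 3 each), differed by less than the spread. Mitochondrially encoded counts were 10.8, 26.4 and 57.3 times the nuclear counts of the same complexes in DL and 22.4, 42.9 and 38.2 times in the rest, so this ratio also overlapped.

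**Figure D4:**
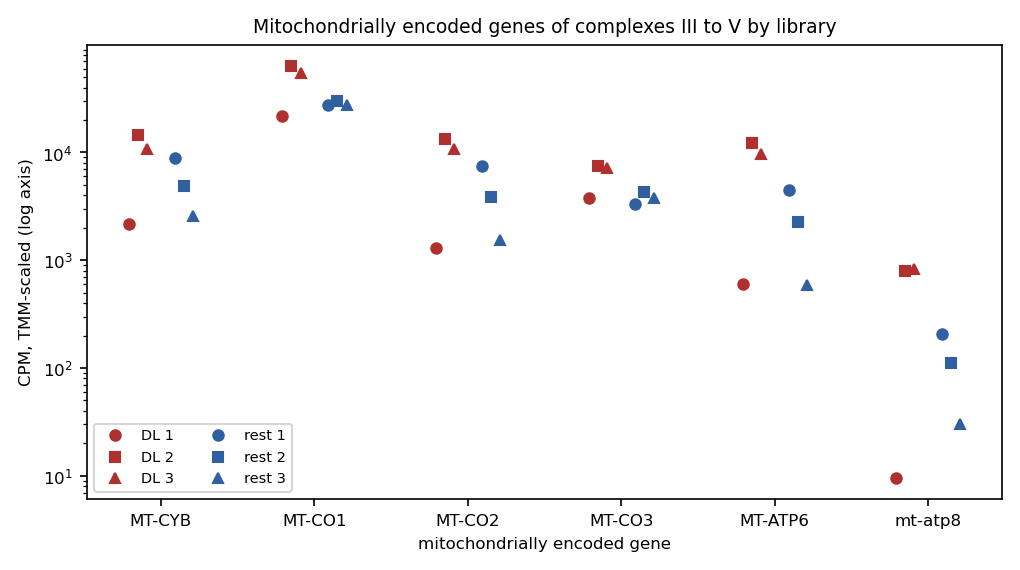
CPM on a log axis for the 6 mitochondrially encoded genes by library, DL in red and rest in blue, with symbols for replicates. DL replicate 1 (red circle) and rest replicate 3 (blue triangle) are the lowest libraries for MT-CYB, MT-CO2, MT-ATP6 and mt-atp8. For MT-CO1 and MT-CO3, rest replicate 3 stands beside the other rest libraries after TMM scaling.

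Several subunits exist in zebrafish as more than 1 gene copy, and the ratio between copies within a library does not depend on how libraries are scaled. Over 14 pairs, 10 from a list and 4 added after the values were seen, no pair had every DL ratio on one side of every rest ratio. Exact two-sided permutation gave p values of 0.2 or more, where 3 against 3 libraries allow none below 0.1, and adjusted over the 14 pairs none was below 0.56. The ratio of cox4i1l to COX4I1 counts was 0.340, 0.172 and 0.0719 in DL and 0.0410, 0.0268 and 0.0798 in the rest. DL replicates 1 and 2 were above all rest libraries, and DL replicate 3 lay just under rest replicate 3. The mean log2 ratio was higher in DL by 1.86, with a p of 0.2. For COX6A1_ENSDARG00000054588 over cox6a1_ENSDARG00000022438, an added pair, the ratio was 8.33, 72.5 and 49.96 against 3.88, 12.9 and 5.11. Here DL replicate 1 alone lay inside the rest, and the mean log2 ratio was higher in DL by 2.29 (exact permutation p = 0.2). The ratio of atp5if1b to atp5if1a was 1.94, 2.02 and 1.54 in DL, close together, and 0.688, 1.04 and 2.02 in the rest. For cox7a1 over COX7A2 the ratio spread from 0.846 to 33.1 within DL alone, so a difference between groups was not detectable. Copies with similar sequences can share reads. Over all genes, 28.1% to 32.9% of the deposited values per library are fractional. In DL replicate 1, uqcrc2a had 261.3 and cox6b2 200.2 counts. There cox4i1l, COX6A1_ENSDARG00000054588 and cox6a1_ENSDARG00000022438 had whole counts, 277, 445 and 53. Sharing of reads was not tested, and the separate values of copies are uncertain.

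**Figure D5:**
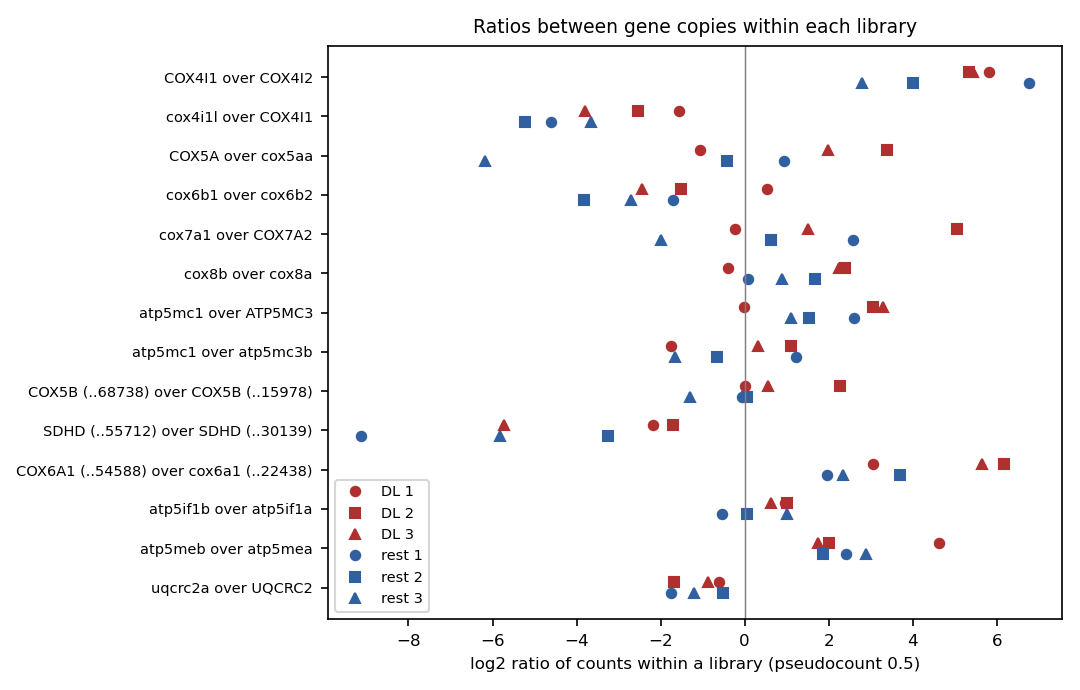
The log2 ratio of counts (pseudocount 0.5) between gene copies within each library (x axis), for 14 pairs; DL libraries are red and rest libraries blue, with symbols for replicates. The red and blue points overlap in every pair, with cox4i1l over COX4I1 and the COX6A1 pair among those with DL shifted to the right.

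Complex I, which feeds electrons into the same chain, had a median fold change near that of complexes II to V. Of its 40 tested nuclear subunit genes, 36 had positive fold changes, with a median log2 value of 0.86 beside 1.004 for the 50 nuclear genes of complexes II to V; the difference was not tested. The edgeR test adjusted over all genes called 0 of them, beside 0.0644% of all genes called higher. An unadjusted p under 0.05 was reached by 2 of the 40, ndufa4b and NDUFS1, both higher in DL. That is 5% of them, beside 4.09% of all genes and 26% of the nuclear genes of complexes II to V. DESeq2 called 1 higher, ndufa4b, beside 1.36% of all genes, and limma-voom 0, beside 0.211%. In 1 of the 40 (2.5%) every DL library was above every rest library. That share was 14% for the nuclear genes of complexes II to V and 6.82% for all genes. The gene ndufa4b is named as a complex I gene, but its mammalian counterpart is known as a subunit of complex IV. It stood at 9.87, 52.3 and 2.27 against 2.56, 1.35 and 0 CPM, with a log2 fold change of 3.94 ± 1.23 (adjusted p = 0.412 by edgeR). DL replicate 3 was inside the rest. The 40 also hold NDUFA4, NDUFA4L2 and ndufa4l2b, which have related names. Their log2 fold changes were 0.96 ± 0.76, -0.75 ± 1.265 and 0.52 ± 1.07. NDUFA4 stood at 14.6, 95.8 and 42.0 against 55.0, 14.1 and 9.15 CPM, with overlap between groups.

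Genes that help to build complexes II to V, and do not stay in them, had smaller fold changes. Of 39 tested genes on this list, LRPPRC and SLIRP among them, 25 were positive. The median log2 fold change was 0.20 beside 0.997 for the 56 members. At an unadjusted p under 0.05, 0 were higher and 0 lower, beside 4.09% and 2.73% of all genes. Every DL library was above every rest library for 2 of the 39 (5.13%), beside 6.82% of all genes. At an adjusted p under 0.05, edgeR, DESeq2 and limma-voom called 0 of the 39. Of all genes they called 0.0644%, 1.36% and 0.211% higher, and DESeq2 called 0.34% lower. The complex IV assembly factor genes coa3b and coa5 had the smallest p in each direction, at 2.45 ± 1.18 and -2.85 ± 1.33 (SE). Of 16 tested genes of cytochrome c and ubiquinone, 12 were positive, with a median of 0.72. In 3 of the 16 (18.75%), COQ10B, PDSS1 and COQ2, every DL library was above every rest library. That share was 12.5% for the 56 genes and 6.82% for all genes. The cytochrome c gene cycsb, the carrier between complexes III and IV, stood at 153, 144 and 139 CPM in DL and 158, 41.9 and 49.1 CPM in the rest, and its copy cycsa is listed at 0 throughout. COQ10B, a ubiquinone-binding protein, stood at 63.2, 99.0 and 50.1 against 34.8, 32.8 and 21.5 CPM without overlap, with 1.25 ± 0.45 (adjusted p = 0.515 by edgeR).

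Markers of other cell types differed between the groups as well, and their part in these values was not tested. All 17 tested stromal and matrix genes were negative, and their summed level ranged from 432 to 2706 CPM in DL and from 1836 to 4534 CPM in the rest. Of 27 proximal tubule genes 24 were negative (sums of 1532 to 2071 against 1439 to 3495 CPM), as were 11 of 14 myeloid genes (71.4 to 610 against 172 to 1670 CPM) and 11 of 13 endothelial genes (322 to 1108 against 791 to 862 CPM). All 7 podocyte genes were negative (260 to 422.5 against 394 to 653 CPM), as were 3 of 4 lymphoid genes (4.58 to 151 against 68.3 to 282 CPM). Erythroid genes were split 5 to 5 (76.0 to 813 against 145 to 708 CPM), and 7 of 9 multiciliated cell genes were positive (216 to 353 against 93.1 to 332 CPM). Of 12 distal tubule genes 10 were positive, with sums of 894 to 5290 CPM in DL and 171 to 358 CPM in the rest. Skeletal muscle expresses COX7A1 in mammals. The muscle creatine kinase gene ckma was at 0 in all libraries but DL replicate 2 (0.113 CPM), and ckmb in all but DL replicate 3 (0.378 CPM). Other muscle genes were detected in both groups. The gene atp2a1 stood at 0.278, 4.61 and 9.08 CPM in DL and 2.56, 0 and 18.1 CPM in the rest. NEB stood at 0.139, 5.37 and 1.70 against 0.639, 0.487 and 8.47 CPM. Of 22 muscle genes, 8 passed the low-count filter. Of these 8, 5 were negative, with a median log2 fold change of -0.44 and sums over the list of 77.4 to 447 CPM in DL and 47.6 to 61.5 CPM in the rest. One positive gene, mb, the oxygen-binding myoglobin, stood at 73.1, 432 and 54.1 CPM in DL and 33.3, 33.6 and 15.6 CPM in the rest without overlap, with a log2 fold change of 2.76 ± 0.77 (adjusted p = 0.306 by edgeR). The muscle sums in DL were 92.1, 447 and 77.4 CPM, and mb made up most of each, so they mainly follow that 1 gene. By the summed level of heat-shock genes DL replicate 3 was the highest library, with 18302 CPM against 2611 to 9891 CPM in the others. That sum was led by a few genes, such as hsp70l at 5542 CPM and hsp70.1 at 4138 CPM. Several others were highest in a rest library, such as HSPD1 in rest replicate 1 (145 CPM) and BAG3 in rest replicate 3 (140 CPM).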

How the data were processed

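RNA-seq libraries were made from hand-dissected tissue with a NuGEN Ovation kit for single cells, per the labels' protocols. The authors deposited 1 table of estimated counts per Ensembl gene, made from their reads with no normalization. Aligner, counter, strand setting and build: not given in the sources used here. Symbols came from a table of identifiers and matched 26121 of 31953 genes. All 6 columns were assigned by name. No protein, promoter or genome sequence was used here.

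Counts were rounded, filtered with filterByExpr (17083 genes left), scaled by TMM and tested by quasi-likelihood with robust dispersions in edgeR 4.0.16 (R 4.3.3) with Benjamini-Hochberg adjustment over all genes at 0.05. Standard errors were derived from the F statistic. The procedure was tested on simulated data. DESeq2 1.42.0 and limma-voom with sample quality weights, which give outlying libraries less weight (limma 3.58.1), other scalings and filters, thinning, and leaving out libraries were alternatives. Library replicate numbers follow accession order and pair nothing. Counting error only is covered by depth.

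The genes and lists were chosen with earlier results of these data known. Genes were named by rule: all mitochondrially encoded and complex II genes; for complexes III to V the 3 with the highest CPM, the 3 with the smallest p and a positive fold change and the 2 with a negative one; gene copies; and the smallest p per direction in each other list. Further genes, mb among them, were named after their values were seen.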

Additional observations from a re-analysis of the deposited data

How the results depend on the processing

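Over 17 alternatives the median log2 fold change of the genes of complexes II to V tested stayed positive, between 0.45 and 1.52, and 44 of the 56 genes were positive in every alternative that tested them. No paired analysis was run because the labels give no replicate numbers shared between the groups. All genes higher in DL numbered 11, against 233 (and 58 lower) by DESeq2, 36 by limma-voom, 1 when libraries were scaled by size alone, 99 (and 7 lower) with no filter on low counts, and 0 when DL replicate 1 and rest replicate 3 were both left out. Of the 56, DESeq2 called 4 and edgeR with no filter 1. An unadjusted p under 0.05 was reached by 13, all higher in DL, against 3 with size alone and 7 without that pair of libraries. The shares of all genes that were higher were 4.09%, 1.14% and 3.37%. No overlap was seen for 7, against 0 and 17, beside 6.82%, 2.08% and 16.9% of all genes. Leaving out each library in turn gave 0 to 51 genes higher and 0 to 2 lower in all. Of the 56, 5 to 25 were higher at an unadjusted p under 0.05, beside 2.88% to 5.06% of all genes. Without overlap were 7 to 26 of the 56, beside 9.17% to 12.5% of all genes. Of the copy pairs, 0 to 4 had no overlap in their ratios (0 with all libraries). The share of mitochondrially encoded counts was 2.39 percentage points higher in DL, and 0.10 to 5.82 when 1 library was left out. In all, 12 of the 56 genes changed sign in some alternative, and the cause was not tested. With size alone, log2 fold changes were -0.031 for cox6b2, -0.023 for ATP5F1A, -0.10 for cox5aa, -0.10 for COX7A2, -0.53 for COX5B_ENSDARG00000015978, -0.22 for atp5md, -0.78 for cox6a1_ENSDARG00000022438 and -0.39 for COX7A2L. By limma-voom they were 0.019 for COX4I2, -0.33 for cox5aa and -0.16 for cox6a1_ENSDARG00000022438. With 1 library left out they ranged from -0.92 to 0.22 for COX4I2, -1.51 to 1.34 for cox5aa, -1.38 to 1.67 for COX7A2, -0.022 to 0.68 for COX5B_ENSDARG00000015978 and -0.11 to 2.06 for atp5mc1, and reached -0.98 for atp5md, -0.68 for atp5mj, -0.060 for UQCRQ, -0.58 for cox6a1_ENSDARG00000022438 and -0.016 for COX7A2L. COQ10A, outside the 56, ranged from -1.57 to 1.09. With both DL replicate 1 and rest replicate 3 left out, COX4I2 had 0.62, cox5aa -0.78, COX5B_ENSDARG00000015978 -0.25, cox6a1_ENSDARG00000022438 -0.93 and COX7A2L -0.12. Genes with few counts, such as COX5A with 1 count in rest replicate 3, are the least precise.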

Other observations

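By median log2 fold change, other mitochondrial gene groups stood between the respiratory genes and all genes tested. By separation they did not. Every DL library was above every rest library for 4 citric acid cycle genes (26.7%), 1 mitochondrial ribosomal gene (1.52%) and 0 import genes. The share was 12.5% for the 56 genes and 6.82% for all genes. Of 15 citric acid cycle genes, 14 had positive fold changes, with a median log2 value of 0.61. The gene ogdha, the first enzyme of the 2-oxoglutarate dehydrogenase complex, stood at 287, 144 and 87.7 CPM in DL and 84.1, 68.2 and 62.4 CPM in the rest, in the order of replicates 1, 2 and 3, without overlap. Its log2 fold change was 1.27 ± 0.51 (SE, adjusted p = 0.621 by edgeR). SUCLG2, a succinyl-CoA ligase subunit, was the negative gene.

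Of 66 tested mitochondrial ribosomal protein genes, 44 were positive, with a median log2 fold change of 0.23, and MRPS11 had 1.63 ± 1.03 while mrpl39 had -1.90 ± 0.87. Of 24 tested genes of protein import into mitochondria, 17 were positive, with a median of 0.19, and TIMM13 had 1.05 ± 0.71. The edgeR test adjusted over all genes called 0 genes of these 3 lists, as did DESeq2 and limma-voom. The shares of all genes called higher were 0.0644%, 1.36% and 0.211%, and DESeq2 called 0.34% lower. At an unadjusted p under 0.05, 1 citric acid cycle gene was higher (6.67%) and 0 of the other lists, beside 4.09% of all genes. For the mitochondrial ribosome, rest replicate 1 had the highest summed level, 457 CPM, above the 418 CPM of DL replicate 2.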
